A study of Mus musculus and Homo sapiens with 32 samples.

Results

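The genes described here encode 10 enzymes of the proximal tubule of the mouse kidney, most of them bound to its brush border: Ggt1, Anpep, Dpp4, Mep1a, Mep1b, Treh, Miox, Dpep1, Naprt and Alpl. They are taken as a list of names, with no threshold on a measured value. All 10 were among the 57180 gene rows of the obstruction experiment, and all 10 were among the 19256 genes with enough reads to be tested. Miox and Naprt encode cytosolic enzymes, so 8 of the 10 products are brush border proteins in the strict sense.

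The study measured RNA from whole kidney tissue of mice that differ in Pcmt1, the gene of a protein repair methyltransferase. The 18 libraries described here are mRNA libraries labelled kidney, with 3 libraries in each of 6 groups, and the 14 other libraries of the series are not used here. The groups were Pcmt1 tKO mice with unilateral ureteral obstruction (UUO) given LY2109761, Pcmt1 fl/fl mice with UUO given LY2109761, Pcmt1 tKO mice with UUO given DMSO, Pcmt1 fl/fl mice with UUO given DMSO, Pcmt1 tKO mice with a sham operation and DMSO, and Pcmt1 fl/fl mice with a sham operation and DMSO. UUO is a tie of 1 ureter that injures the kidney above it, LY2109761 blocks the kinases of both TGF-β receptors, and DMSO is its solvent. The labels do not spell out tKO, and they give no Cre driver, age, sex, dose or time after surgery. Nothing in them says that libraries of a group came from separate animals, so the p-values measure the spread between these libraries.

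The brush border is the carpet of microvilli on the luminal face of proximal tubule cells. Its enzymes face the filtrate, where they cut filtered peptides, glutathione and sugars into pieces that transporters in the same membrane take up. These enzymes have long served as markers of a mature proximal tubule, and their activity in urine has been used as a sign of tubule damage.

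Library totals lay between 13015669 and 19565376 counts, and single member counts between 137 and 28828. The share of counts from mitochondrial genes was 33.7% to 69.5% in libraries labelled tKO sham and 30.8% to 35.5% in fl/fl sham libraries. It was 9.88% to 16.2% in tKO UUO, 7.43% to 7.67% in fl/fl UUO, 12.4% to 18.8% in tKO UUO plus LY2109761 and 12.2% to 16.4% in fl/fl UUO plus LY2109761. Pcmt1, the targeted gene, had 49.3, 22.7 and 24.3 CPM (counts scaled to 1000000 per library) in the libraries labelled tKO sham, against 42.8 to 49.0 CPM in fl/fl sham. The library labelled tKO sham replicate 1 thus lay above all 3 fl/fl sham libraries, against its label, and tKO sham replicate 3 had the highest mitochondrial share. Pcmt1 had 24.7 to 26.1 CPM in tKO UUO libraries, against 35.3 to 41.4 CPM in fl/fl UUO. It had 23.1 to 28.0 CPM in tKO UUO plus LY2109761, against 25.7 to 39.0 CPM in fl/fl UUO plus LY2109761, where the library labelled fl/fl UUO plus LY2109761 replicate 3 overlapped the tKO range.

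Levels can be compared between genes per length, as the deposited FPKM values. In fl/fl sham kidneys Miox had the highest mean of the 10 genes, at 442 ± 138 FPKM (SD, n = 3), and Mep1a followed at 239.7 ± 24.7 FPKM. Ggt1 averaged 121 ± 8.91 FPKM and Mep1b 88.6 ± 8.26 FPKM. The other 6 genes averaged between 6.37 FPKM (Dpp4) and 26.0 FPKM (Alpl). Miox made up 33.5% to 49.3% of the summed FPKM of the 10 genes in these libraries.

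Obstruction lowered most of these enzymes in both genotypes. In tKO kidneys 8 of the 10 genes fell, against 19.4% of all genes tested that fell, and their median log2 fold change was -1.57, against a median of 0.02 over all genes tested. In fl/fl kidneys 8 fell, against 18.7% of all genes tested, and Alpl rose, where 20.9% of all genes tested rose. The median of the 10 genes there was -1.02, against 0.02 over all genes tested. Calls here and below are those of edgeR's quasi-likelihood test with Benjamini-Hochberg adjustment over all 19256 genes, at an adjusted p under 0.05. The same 8 genes were called lower in both genotypes: Mep1b, Miox, Ggt1, Mep1a, Treh, Dpep1, Naprt and Anpep. Dpp4 was not called in either. Separation of the libraries was common: 48.8% of all genes tested had no overlap between UUO and sham in tKO, and 54.8% in fl/fl, in either direction.

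Summed over the 10 genes, the level was 798 to 819 CPM in tKO UUO libraries, against 3388 to 3824 CPM in those labelled tKO sham. It was 1230 to 1914 CPM in fl/fl UUO libraries, against 4655 to 5736 CPM in fl/fl sham. In bulk tissue, fewer proximal tubule cells and less RNA of a gene per cell cannot be told apart. The fold changes are relative to the TMM scaling, which holds the median gene near 0. If libraries were scaled by their column totals, the median gene would lie at 1.06 in the tKO comparison and at 0.76 in the fl/fl comparison, and 6 of the 10 genes would be called in each, 4 lower and 2 higher. Over all genes that scaling would call 11686 higher and 715 lower in tKO, against 4168 and 3729 with TMM, and 8547 higher and 906 lower in fl/fl, against 4031 and 3594 with TMM. Without tKO sham replicate 1, and likewise without tKO sham replicate 3, 8 of the 10 genes were still called lower in tKO kidneys.

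**Figure D1:**
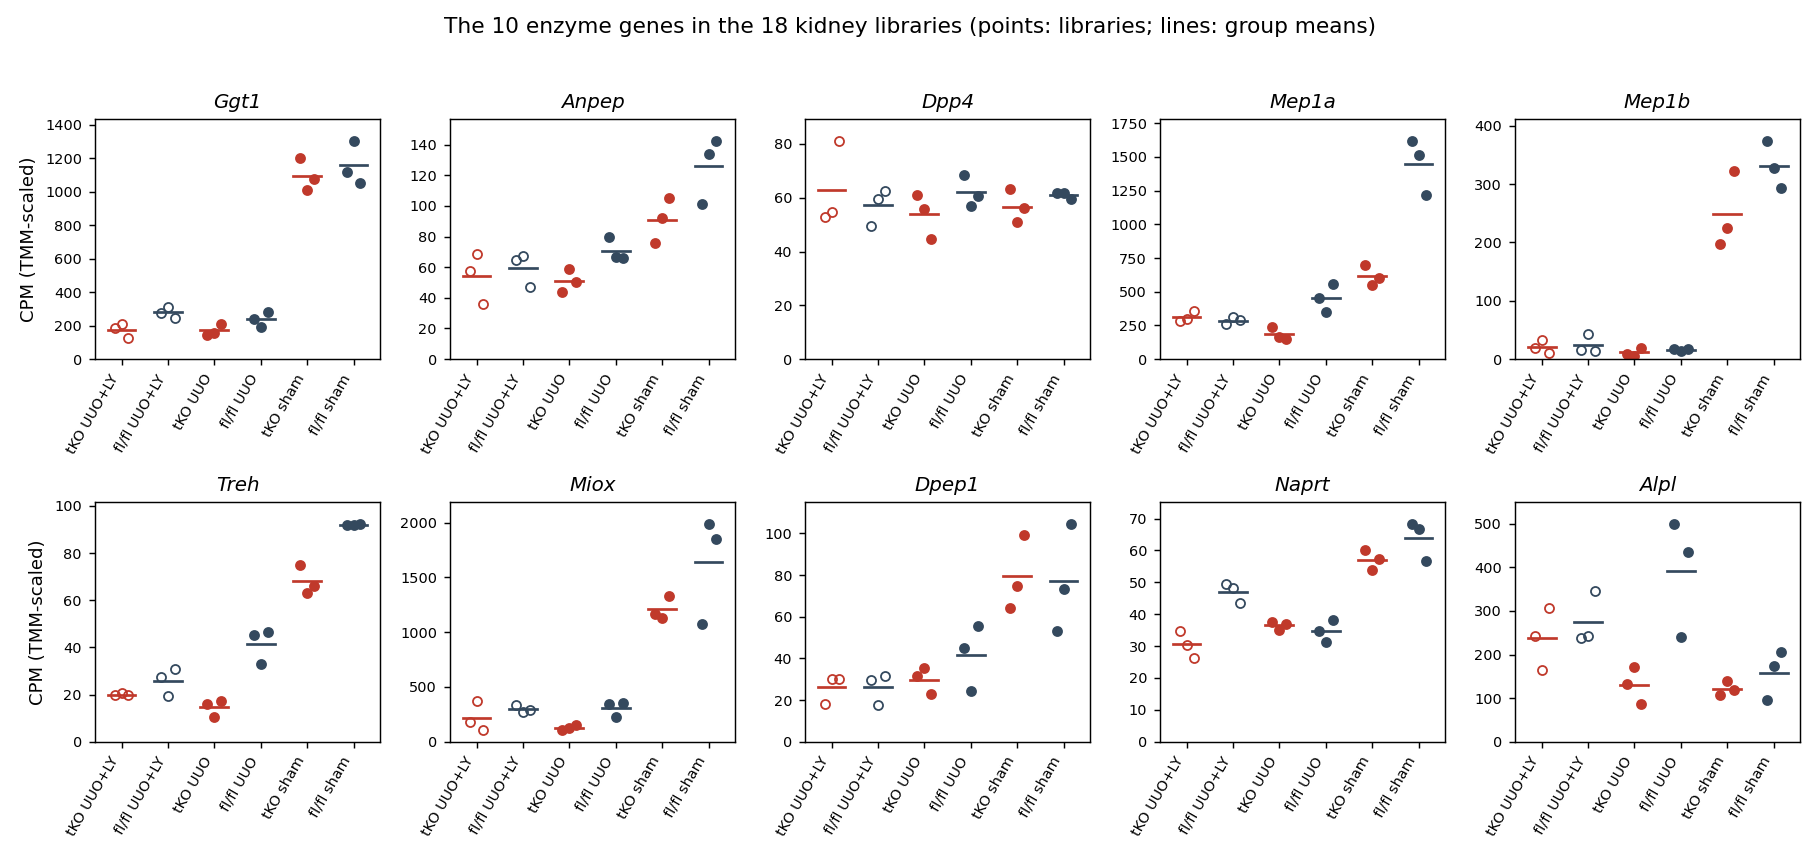
Level in CPM (linear axis, TMM-scaled) of the 10 enzyme genes in 18 kidney libraries; each point is a library, each line a group mean, red is tKO, dark blue is fl/fl, and open points had LY2109761. Mep1b, Miox, Ggt1, Treh and Naprt show a gap between all obstructed and all sham libraries. Dpp4 shows no separation, and Alpl is highest in fl/fl UUO.

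The meprins are secreted or membrane-bound metalloproteases that cleave peptides and matrix proteins, and Mep1a and Mep1b encode their α and β subunits. Mep1b (ENSMUSG00000024313, chromosome 18, 21061923 to 21100199, plus strand, GRCm38) had 9.24, 5.92 and 19.7 CPM in tKO UUO libraries, against 197, 225 and 322 CPM in those labelled tKO sham. It had 16.5, 13.8 and 17.6 CPM in fl/fl UUO libraries, against 374, 327 and 294 CPM in fl/fl sham. The obstructed libraries of each genotype lay below every sham library, with no overlap. The log2 fold change was -4.42 ± 0.54 (SE) in tKO and -4.38 ± 0.54 in fl/fl (edgeR adjusted p = 1.3e-05 in each), the lowest of the 10 genes in both. The mean of the fl/fl UUO libraries was 4.82% of the fl/fl sham mean.

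Mep1a (ENSMUSG00000023914, chromosome 17, 43474324 to 43502812, minus strand) had 236, 166 and 152 CPM in tKO UUO libraries, against 699, 547 and 598 CPM in those labelled tKO sham. It had 452, 346 and 556 CPM in fl/fl UUO libraries, against 1618, 1515 and 1214 CPM in fl/fl sham. The groups of each pair did not overlap, and both tKO groups lay below their fl/fl counterparts. The log2 fold change of UUO over sham was -1.73 ± 0.20 in tKO (edgeR adjusted p = 8.5e-06) and -1.68 ± 0.20 in fl/fl (edgeR adjusted p = 1.1e-05), while with column totals the tKO value was -0.69 and missed the threshold (0.053). The 2 subunit genes differed in size of change: the α subunit gene kept 31.1% of its fl/fl sham mean in fl/fl UUO libraries. That difference between genes was not tested.

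The other peptidases of the membrane moved less. Anpep (ENSMUSG00000039062, chromosome 7, 79821803 to 79861059, minus strand) encodes aminopeptidase N, which removes neutral residues from the N terminus of peptides and is also found on myeloid cells. It had 43.9, 58.9 and 50.4 CPM in tKO UUO libraries, against 75.5, 91.9 and 105 CPM in those labelled tKO sham. It had 79.6, 66.5 and 66.1 CPM in fl/fl UUO libraries, against 102, 134 and 142 CPM in fl/fl sham. Neither pair overlapped. The log2 fold change was -0.83 ± 0.22 in tKO (edgeR adjusted p = 0.0069) and -0.83 ± 0.22 in fl/fl (edgeR adjusted p = 0.0066), while with column totals it turned to 0.29 in tKO and came to -0.10 in fl/fl, past the threshold in neither.

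Dpep1 (ENSMUSG00000019278, chromosome 8, 123186242 to 123201812, plus strand) encodes a GPI-anchored dipeptidase that splits cysteinylglycine and other dipeptides. It had 31.5, 35.1 and 22.7 CPM in tKO UUO libraries, against 64.3, 75.0 and 99.5 CPM in those labelled tKO sham. It had 45.2, 24.4 and 55.4 CPM in fl/fl UUO libraries, against 53.0, 73.1 and 105 CPM in fl/fl sham. The tKO groups were apart, whereas 1 fl/fl UUO library lay above the lowest fl/fl sham library. For Dpep1 the log2 fold change was -1.42 ± 0.33 in tKO (edgeR adjusted p = 0.0031) and -0.88 ± 0.33 in fl/fl (edgeR adjusted p = 0.0433). The fl/fl call was lost without fl/fl sham replicate 3 (-0.59, adjusted p = 0.2043), without fl/fl sham replicate 2 (0.0748), without fl/fl UUO replicate 1 (0.0769) and without fl/fl UUO replicate 2 (-0.61, 0.1789). It was also lost with only the groups compared (0.0731) and without the filter on low counts (0.0687), and with column totals the value was -0.27 in tKO and -0.16 in fl/fl, past the threshold in neither.

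Dpp4 (ENSMUSG00000035000, chromosome 2, 62330073 to 62412231, minus strand) encodes dipeptidyl peptidase 4, which clips dipeptides from incretins and chemokines and also marks T cells and some fibroblasts. It had 60.9, 55.8 and 44.8 CPM in tKO UUO libraries, against 63.1, 51.0 and 56.0 CPM in those labelled tKO sham. It had 68.3, 57.0 and 60.5 CPM in fl/fl UUO libraries, against 62.0, 61.6 and 59.4 CPM in fl/fl sham. The groups overlapped throughout, and every neighbouring pair in the order of the 6 group means overlapped too. The log2 difference was -0.08 in tKO, with a 95% interval of -0.44 to 0.29, and 0.02 in fl/fl, with an interval of -0.34 to 0.39. With column totals both became positive and passed the threshold, at 0.97 in tKO and 0.76 in fl/fl.

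Ggt1 (ENSMUSG00000006345, chromosome 10, 75561604 to 75586200, plus strand) encodes γ-glutamyltransferase 1, which starts the breakdown of glutathione at the cell surface. It had 144, 158 and 212 CPM in tKO UUO libraries, against 1199, 1009 and 1074 CPM in those labelled tKO sham. It had 238, 189.6 and 284 CPM in fl/fl UUO libraries, against 1117, 1303 and 1052.5 CPM in fl/fl sham. All obstructed libraries lay far below all sham libraries, and the 2 sham groups overlapped each other. Ggt1 changed by a log2 fold of -2.68 ± 0.21 in tKO (edgeR adjusted p = 3.1e-07) and -2.29 ± 0.21 in fl/fl (edgeR adjusted p = 9.9e-07).

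Treh (ENSMUSG00000032098, chromosome 9, 44673233 to 44686305, plus strand) encodes trehalase, a GPI-anchored enzyme that splits trehalose into glucose. It had 16.2, 10.6 and 17.3 CPM in tKO UUO libraries, against 74.9, 63.2 and 66.0 CPM in those labelled tKO sham. It had 45.3, 32.7 and 46.5 CPM in fl/fl UUO libraries, against 92.0, 91.8 and 92.5 CPM in fl/fl sham. The 4 groups formed 4 separate steps without overlap, with tKO UUO at the bottom and fl/fl sham at the top. The log2 fold change of UUO over sham was -2.21 ± 0.20 in tKO (edgeR adjusted p = 9.8e-07) and -1.15 ± 0.19 in fl/fl (edgeR adjusted p = 0.00023), where with column totals the fl/fl value was -0.41 with an adjusted p of 0.2538.

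Alpl (ENSMUSG00000028766, chromosome 4, 137741733 to 137796384, minus strand) encodes tissue-nonspecific alkaline phosphatase, a GPI-anchored phosphomonoesterase that bone, neutrophils and other tissues also make. It had 132, 172 and 85.9 CPM in tKO UUO libraries, against 106, 140.0 and 119 CPM in those labelled tKO sham. It had 500.25, 239.7 and 435 CPM in fl/fl UUO libraries, against 94.99, 173 and 205 CPM in fl/fl sham. The tKO groups overlapped, whereas all 3 fl/fl UUO libraries lay above all 3 fl/fl sham libraries. For Alpl the log2 fold change was 0.09 ± 0.33 in tKO (edgeR adjusted p = 0.8536) and 1.31 ± 0.34 in fl/fl (edgeR adjusted p = 0.0055). Alpl was the only member called higher after UUO with DMSO, and with column totals the tKO value also passed, at 1.17 (adjusted p = 0.0145).

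Miox (ENSMUSG00000022613, chromosome 15, 89334398 to 89337015, plus strand) encodes myo-inositol oxygenase, the cytosolic enzyme that opens inositol to glucuronate in renal tubules. It had 105, 121.5 and 157 CPM in tKO UUO libraries, against 1167, 1131 and 1327 CPM in those labelled tKO sham. It had 345, 229 and 354 CPM in fl/fl UUO libraries, against 1075, 1990.3 and 1854 CPM in fl/fl sham. Neither pair overlapped, and the obstructed tKO libraries were also below the obstructed fl/fl libraries. On the log2 scale Miox changed by -3.24 ± 0.38 in tKO (edgeR adjusted p = 8.6e-06) and -2.41 ± 0.36 in fl/fl (edgeR adjusted p = 9.1e-05).

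Naprt (ENSMUSG00000022574, chromosome 15, 75890956 to 75894481, minus strand) encodes nicotinate phosphoribosyltransferase, the cytosolic enzyme that starts NAD synthesis from nicotinic acid. It had 37.7, 35.1 and 36.8 CPM in tKO UUO libraries, against 60.1, 53.9 and 57.2 CPM in those labelled tKO sham. It had 34.6, 31.2 and 38.3 CPM in fl/fl UUO libraries, against 68.4, 66.7 and 56.6 CPM in fl/fl sham. The obstructed libraries lay below the sham libraries in both genotypes. Naprt changed by a log2 fold of -0.64 ± 0.13 in tKO (edgeR adjusted p = 0.00074) and -0.88 ± 0.13 in fl/fl (edgeR adjusted p = 5.2e-05), while with column totals it turned to 0.41 in tKO and came to -0.14 in fl/fl, past the threshold in neither.

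**Figure D2:**
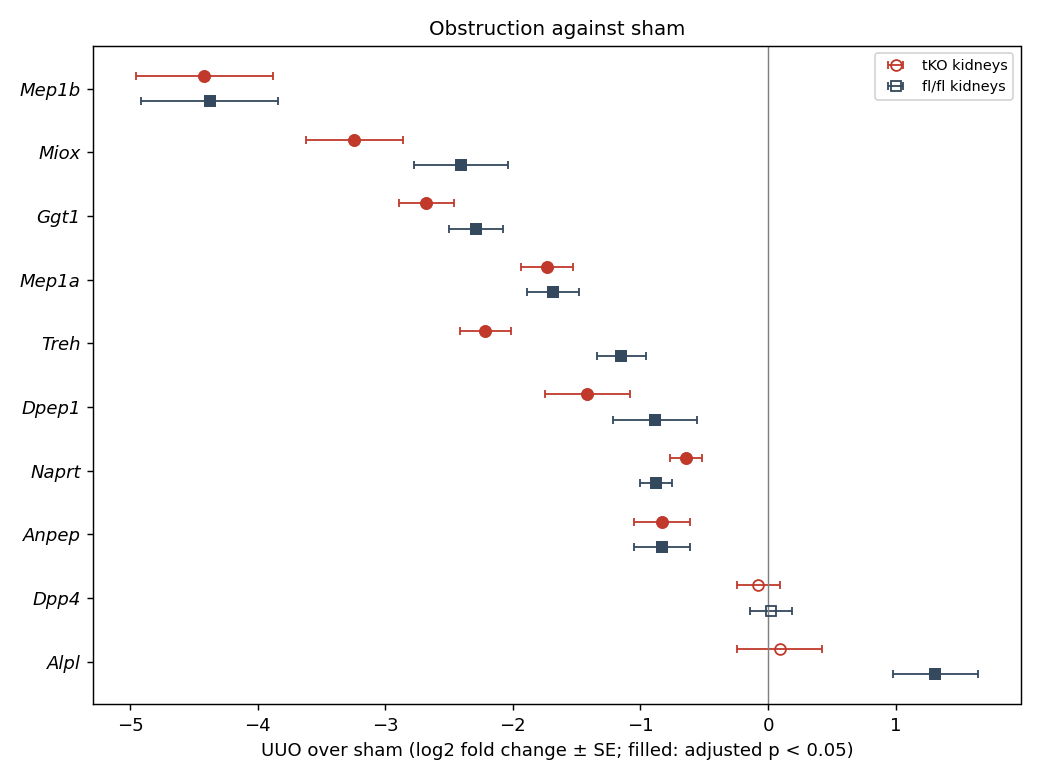
Log2 fold change of UUO over sham (horizontal axis, ± SE) for each gene, in tKO (red circles) and fl/fl kidneys (dark blue squares); filled symbols had an edgeR adjusted p under 0.05. The values run from -4.42 (Mep1b, tKO) to 1.31 (Alpl, fl/fl) under TMM scaling; with column totals Anpep, Dpp4 and Naprt turn positive in tKO.

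The genotypes share no sham libraries, so the difference between their responses could be tested as an interaction. None of the 10 genes was called (edgeR), where 0.0415% of all genes tested were called in either direction, while 2 of the 10 had an unadjusted p under 0.05, against 12.6% of all genes, and DESeq2 called 1, against 2.14%. The count over all genes, 8, became 293 without tKO sham replicate 1 and 171 without fl/fl UUO replicate 3. Those with the lowest p were Treh, at -1.06 ± 0.27 log2 (edgeR adjusted p = 0.1217; DESeq2 adjusted p = 0.0172), and Alpl, at -1.22 ± 0.47 (edgeR adjusted p = 0.2856). For Mep1b the difference was -0.04, with an interval of -1.49 to 1.41, so a sizeable difference in either direction was not detectable at this depth and spread.

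Markers of whole cell types moved with obstruction. The summed level of 11 proximal tubule markers, none of them an enzyme described here, was 4990 to 7110 CPM in tKO UUO libraries, against 26100 to 42500 CPM in those labelled tKO sham. It was 5040 to 8360 CPM in fl/fl UUO libraries, against 29300 to 42100 CPM in fl/fl sham. Of these 11 markers, 10 were called lower in tKO and 8 in fl/fl, and none was at 0 in any group. With column totals 8 were called lower in tKO and 6 in fl/fl. Of all genes tested, 19.4% were called lower in tKO and 18.7% in fl/fl with TMM. Markers of injured tubule (4 genes, among them Havcr1) summed to 1030 to 1440 CPM in tKO UUO, against 32.7 to 50.8 CPM in libraries labelled tKO sham. They summed to 2080 to 2740 CPM in fl/fl UUO, against 20 to 36 CPM in fl/fl sham. Leukocyte markers (10 genes) summed to 626 to 1440 CPM in tKO UUO, against 183 to 231 CPM in tKO sham, and to 526 to 674 CPM in fl/fl UUO, against 155 to 188 CPM in fl/fl sham. Fibroblast markers (6 genes) summed to 1600 to 2270 CPM in tKO UUO, against 271 to 427 CPM in tKO sham, and to 815 to 1030 CPM in fl/fl UUO, against 152 to 203 CPM in fl/fl sham. No gene of these lists was at 0 in any group, and the part of these cell types and of the mitochondrial share in the enzyme changes was not tested.

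Set against the mean log2 level of the same 11 tubule markers, the enzymes spread in both directions. The log2 ratio of Mep1b to the markers was -3.36 ± 0.78 (SD, n = 3) in tKO UUO, against -1.22 ± 0.14 in tKO sham, and -3.74 ± 0.26 in fl/fl UUO, against -1.15 ± 0.62 in fl/fl sham. Mep1b thus lay further below the markers in obstructed kidneys, and its ranges did not overlap. The ratio of Alpl was 0.25 ± 0.62 in tKO UUO, against -2.23 ± 0.34 in tKO sham, and 0.82 ± 0.27 in fl/fl UUO, against -2.28 ± 0.19 in fl/fl sham. The ratio of Dpp4 was -0.98 ± 0.39 in tKO UUO, against -3.33 ± 0.31 in tKO sham, and -1.77 ± 0.39 in fl/fl UUO, against -3.58 ± 0.48 in fl/fl sham. Alpl and Dpp4 thus lay higher relative to the markers in every obstructed library than in any sham library. The same held for Anpep and Naprt, which were called lower with obstruction. For Naprt the gap was small, with -2.84 at lowest in obstructed libraries and -2.88 at highest in sham libraries. Dpep1 lay 0.71 to 1.46 above its fl/fl sham ratio in the means of the 4 obstructed groups, with overlap between obstructed and sham libraries. Treh was within 0.62 log2 of its fl/fl sham ratio in every other group mean, and Mep1a was within 0.19 in the 4 obstructed groups but 0.87 below in tKO sham.

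**Figure D3:**
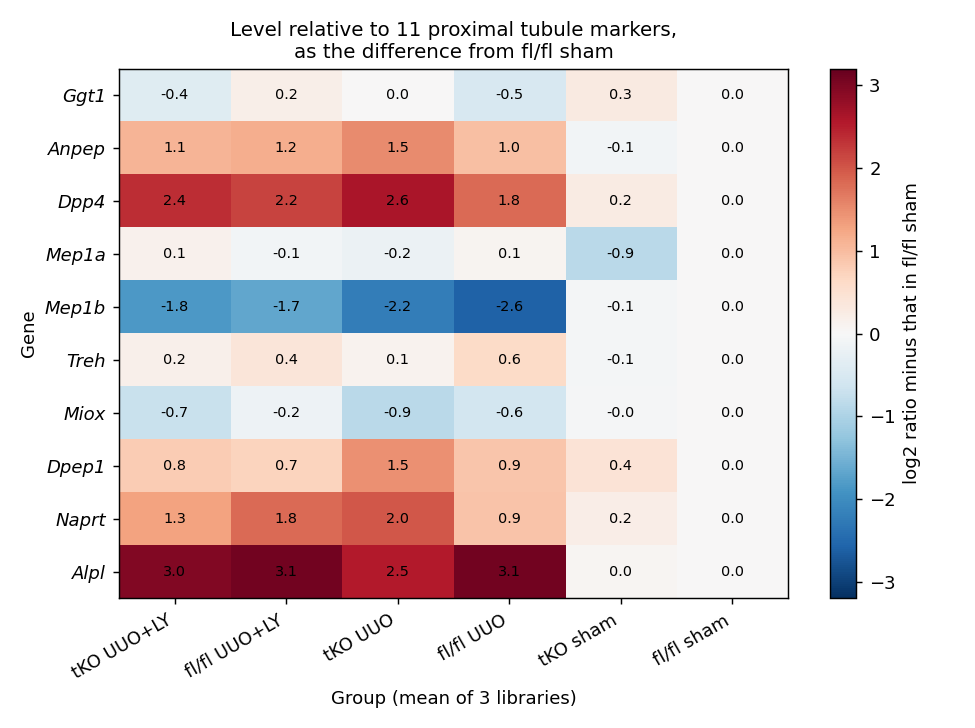
Mean log2 ratio of each enzyme gene to the mean of 11 proximal tubule markers in 6 groups (columns), minus the ratio in fl/fl sham; red is higher and blue lower, and each cell is a mean of 3 libraries. Alpl and Dpp4 are highest in the 4 obstructed groups (1.81 to 3.10), and Mep1b is lowest (-2.59 to -1.67). Anpep, Naprt and Dpep1 also lie above fl/fl sham there (0.71 to 1.99).

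Some of the enzymes were lower in tKO than in fl/fl kidneys. In UUO with DMSO, Mep1a, Treh, Miox and Alpl were lower in tKO, 4 of the 10 genes, against 9.65% of all genes tested, and 9 of the 10 had a negative difference. The median log2 difference was -0.48, against 0.05 over all genes tested. In sham kidneys Mep1a was called lower, 1 of the 10 genes, against 6.57% of all genes tested, with a median of -0.40 against 0.03. In UUO plus LY2109761 Naprt was called lower, 1 of the 10 genes, against 2.09%, with a median of -0.24 against 0.02.

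Mep1a was the gene that was lower in tKO in both groups given DMSO, by -1.24 ± 0.20 log2 in sham (edgeR adjusted p = 0.0046) and by -1.29 ± 0.20 in UUO (edgeR adjusted p = 0.0017). With the library labelled tKO sham replicate 1 dropped, the sham value was -1.34 (adjusted p = 0.0016), and with tKO sham replicate 3 dropped it was -1.22 (0.0154), and the call was lost when only the 2 sham groups were fitted (-1.23, 0.0716). With column totals it was -1.49 (0.0265), with the median of all genes at -0.25. After UUO, Treh differed by -1.50 ± 0.20 (edgeR adjusted p = 0.00071) and Alpl by -1.59 ± 0.34 (edgeR adjusted p = 0.0069). All 3 tKO UUO libraries lay below all 3 fl/fl UUO libraries for these genes. Of all genes tested, 42.4% had no overlap between these groups, in either direction. Miox differed by -1.28 ± 0.35 after UUO (edgeR adjusted p = 0.023), and this call was lost without fl/fl UUO replicate 1 (0.0778) or 3 (0.0676), without tKO UUO replicate 1 (0.0743) or 2 (0.0766), and with column totals (0.0678). Ggt1 and Anpep, at -0.47 each, did not pass (edgeR adjusted p = 0.1147 and 0.146).

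The genotype differences ran beside differences in tubule and stroma markers. After UUO, 4 of the 11 proximal tubule markers were called lower in tKO, with a median log2 difference of -1.10. Of 6 fibroblast markers 2 were called higher in tKO, with a median of 0.88. With column totals 3 proximal tubule markers were called lower and 2 fibroblast markers higher, with medians of -1.05 and 0.91. Over all 19256 genes tested, 1858 were called lower and 1593 higher with TMM. The summed proximal tubule markers overlapped between tKO UUO (4990 to 7110 CPM) and fl/fl UUO (5040 to 8360 CPM), while the fibroblast sums did not (1600 to 2270 CPM in tKO UUO, 815 to 1030 CPM in fl/fl UUO). The mitochondrial share was also higher in tKO UUO than in fl/fl UUO (9.88% to 16.2% against 7.43% to 7.67%). In sham kidneys, 4 of the 6 fibroblast markers were called higher in tKO, with a median of 1.09. Of 4 urothelial markers 2 were called higher, with a median of 1.85. Of the 11 proximal tubule markers 2 were called lower, with a median of -0.34. With column totals no fibroblast or urothelial marker was called, with medians of 0.69 and 1.64, and 2 proximal tubule markers were called lower. Over all 19256 genes tested, 1109 were called higher and 1266 lower with TMM. With only the sham groups fitted, all calls fell from 2375 to 6. The fibroblast sum was 271 to 427 CPM in tKO sham, against 152 to 203 CPM in fl/fl sham. The part of these in the enzyme differences was not tested.

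**Figure D4:**
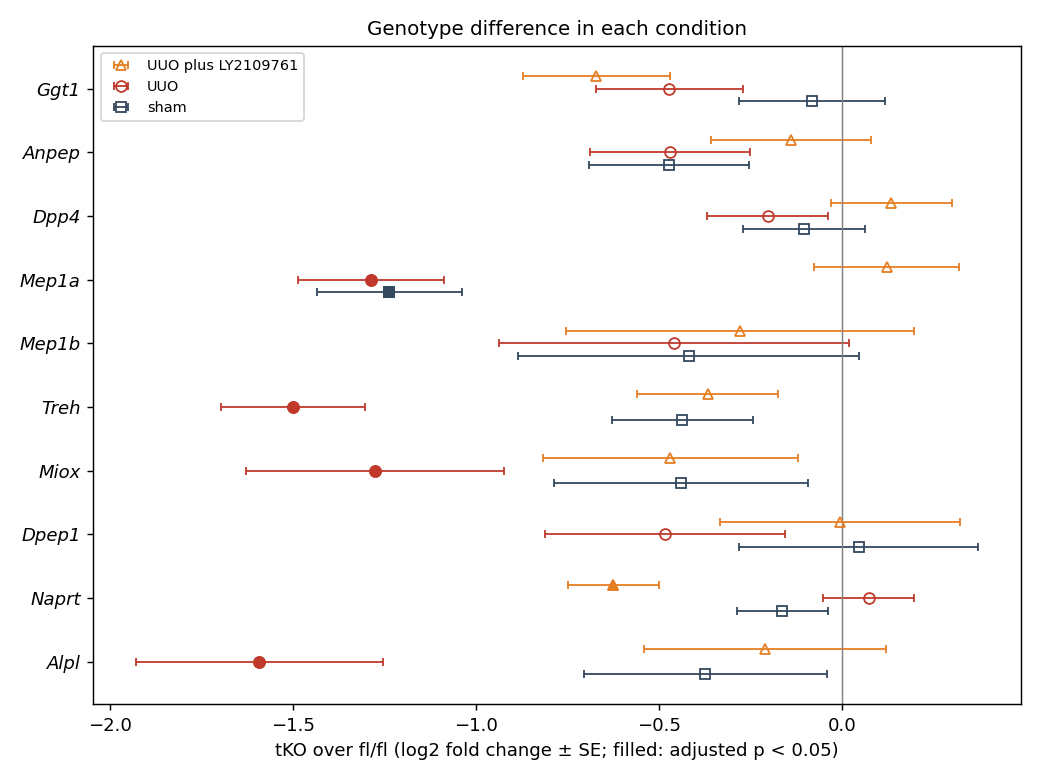
Log2 difference of tKO over fl/fl (horizontal axis, ± SE) for each gene in UUO plus LY2109761 (orange triangles), UUO (red circles) and sham kidneys (dark blue squares); filled symbols had an edgeR adjusted p under 0.05. Mep1a lies at -1.29 in UUO and -1.24 in sham but at 0.12 in UUO plus LY2109761.

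LY2109761 changed no enzyme gene past the threshold within a genotype, but its effect differed between genotypes for 3 of them. In tKO UUO kidneys none of the 10 genes was called (edgeR), against 0.171% of all genes tested, although 4 had an unadjusted p under 0.05, against 17.2% of all genes, and DESeq2 called 1, against 4.66% of all genes. In fl/fl UUO kidneys none was called (edgeR), against 5.15% of all genes tested, although 3 had an unadjusted p under 0.05, against 22.4% of all genes, and DESeq2 called 3, against 10.8% of all genes. The fl/fl count over all genes, 991, fell to 2 without fl/fl UUO plus LY2109761 replicate 3, to 116 without its replicate 1, and to 47 and 264 without fl/fl UUO replicate 1 and 2. The interaction, the LY2109761 change in tKO minus that in fl/fl, was called higher for Mep1a and Treh, 2 of the 10 genes, against 7.05% of all genes tested. It was called lower for Naprt, 1 of the 10, against 6.80% of all genes tested. The median interaction of the 10 genes was 0.41, against -0.04 over all genes tested. The interaction uses the same obstructed DMSO libraries as the tKO against fl/fl comparison after UUO, so these results are not independent.

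Mep1a had 280.4, 297 and 356 CPM in tKO UUO kidneys given LY2109761, against 236, 166 and 152 CPM in those given DMSO. It had 259.6, 309 and 289 CPM in fl/fl UUO kidneys given LY2109761, against 452, 346 and 556 CPM in those given DMSO. The treated tKO libraries all lay above the DMSO ones, and the treated fl/fl libraries all lay below them. Of all genes tested, 25.6% had no overlap between treated and DMSO libraries in tKO, and 31.8% in fl/fl, in either direction. The changes were 0.75 ± 0.20 log2 in tKO (edgeR adjusted p = 0.0994) and -0.66 ± 0.20 in fl/fl (0.0636), and the interaction was 1.41 ± 0.28 (edgeR adjusted p = 0.006). With LY2109761 the 2 genotypes overlapped, and their difference was 0.12, with a 95% interval of -0.31 to 0.55.

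Treh had 19.7, 20.7 and 19.6 CPM in tKO UUO kidneys given LY2109761, against 16.2, 10.6 and 17.3 CPM in those given DMSO. It had 27.3, 19.2 and 30.7 CPM in fl/fl UUO kidneys given LY2109761, against 45.3, 32.7 and 46.5 CPM in those given DMSO. The direction again differed by genotype, with no overlap in either pair. The changes were 0.45 ± 0.19 in tKO (edgeR adjusted p = 0.2497) and -0.69 ± 0.19 in fl/fl (0.0514), and the interaction was 1.13 ± 0.27 (edgeR adjusted p = 0.0152). The fl/fl change passed with DESeq2's size factors (0.0461), without mitochondrial genes (0.0449), with DESeq2 (0.0122) and without fl/fl UUO plus LY2109761 replicate 4 (0.0352).

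Naprt moved the other way. It had 34.8, 30.4 and 26.3 CPM in tKO UUO kidneys given LY2109761, against 37.7, 35.1 and 36.8 CPM in those given DMSO. It had 49.4, 48.2 and 43.6 CPM in fl/fl UUO kidneys given LY2109761, against 34.6, 31.2 and 38.3 CPM in those given DMSO. Neither pair overlapped, with the treated tKO libraries below and the treated fl/fl libraries above their DMSO counterparts. The changes were -0.26 ± 0.13 in tKO (edgeR adjusted p = 0.3035) and 0.44 ± 0.13 in fl/fl (0.0535), and the interaction was -0.70 ± 0.18 (edgeR adjusted p = 0.0191). It missed the threshold without tKO UUO plus LY2109761 replicate 3 (0.055) and without the filter on low counts (0.0656). Under LY2109761 Naprt was lower in tKO by -0.62 ± 0.13 (edgeR adjusted p = 0.0226), a call lost without fl/fl UUO plus LY2109761 replicate 1 (0.0793) or 3 (0.0965) and without tKO UUO plus LY2109761 replicate 2 (0.0777) or 3 (0.117). It was also lost without the filter (0.0547), with only the groups compared (0.0865) and with column totals (0.4811).

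Alpl had 243, 165 and 306 CPM in tKO UUO kidneys given LY2109761, and 239, 241 and 345 CPM in fl/fl UUO kidneys given it. These groups overlapped, unlike the DMSO groups. The change with LY2109761 was 0.87 ± 0.33 in tKO (edgeR adjusted p = 0.1982) and -0.51 ± 0.33 in fl/fl (0.3894). The interaction of 1.38 ± 0.47 missed the threshold (edgeR adjusted p = 0.0618) and passed with DESeq2 (0.0316), without fl/fl UUO replicate 2 (0.0342) and without fl/fl UUO plus LY2109761 replicate 4 (0.0484). The interactions of the other 6 genes ran between -0.20 (Ggt1) and 0.81 (Miox), with adjusted p between 0.2912 and 0.8888 (edgeR). Of these, Miox in tKO UUO kidneys given LY2109761 had the widest spread, with 179, 369 and 104 CPM, so that its replicate 2 lay above every tKO UUO library given DMSO and its replicate 3 below all of them.

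With column totals the 3 interactions kept their size but were no longer called, at 1.40 for Mep1a (adjusted p = 0.1015), 1.13 for Treh (0.1778) and -0.69 for Naprt (0.3443). Proximal tubule markers moved the same way as Mep1a and Treh, with 4 of 11 called higher in the interaction (2 with column totals) and a median of 1.01. Fibroblast markers moved the other way, with 3 of 6 called lower (0 with column totals) and a median of -0.97. Urothelial markers (4 genes) summed to 91.0 to 169 CPM in tKO UUO plus LY2109761, against 43.9 to 134 CPM in tKO UUO, and to 141 to 345 CPM in fl/fl UUO plus LY2109761, against 29.5 to 95.2 CPM in fl/fl UUO. The part of these cell types in the interactions was not tested.

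**Figure D5:**
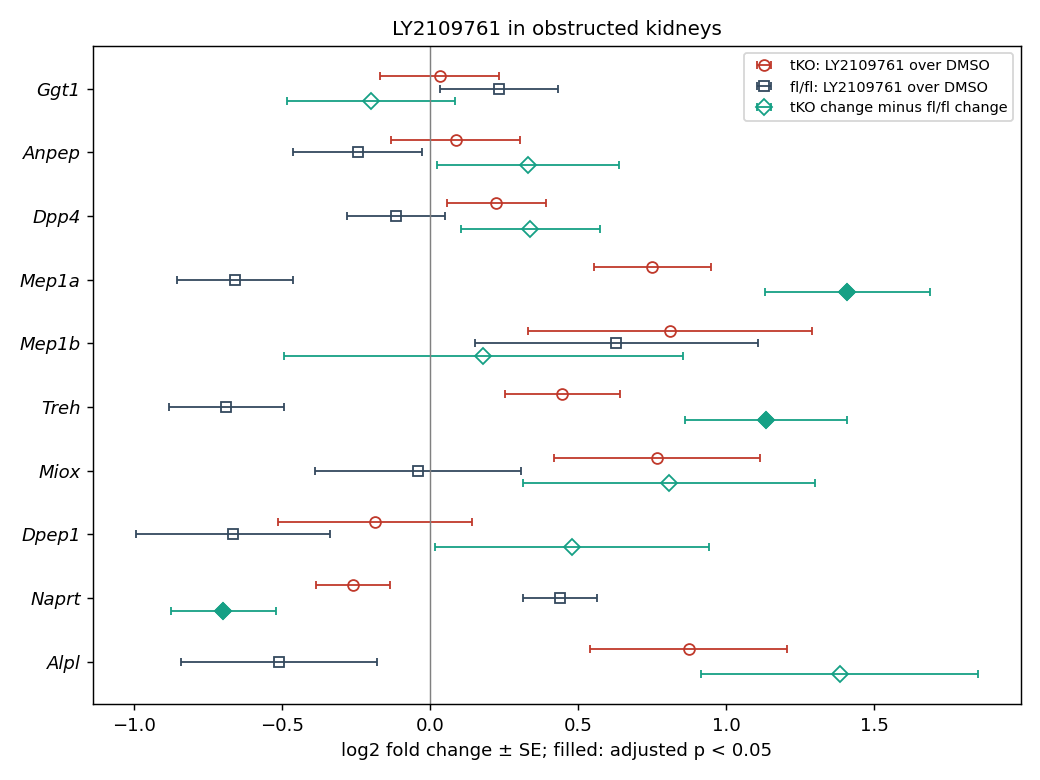
Log2 fold change of LY2109761 over DMSO (horizontal axis, ± SE) in tKO (red circles) and fl/fl (dark blue squares) UUO kidneys, with the tKO change minus the fl/fl change (green diamonds); filled symbols had an edgeR adjusted p under 0.05. The filled diamonds are Mep1a (1.41), Treh (1.13) and Naprt (-0.70).

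With TMM scaling, most of the enzymes were still below the sham level in obstructed kidneys given LY2109761. Dpp4 was not called in either genotype (0.15 log2 in tKO and -0.09 in fl/fl). In tKO, 8 of the 10 genes were lower in UUO plus LY2109761 than in sham, against 19.0% of all genes tested, and Alpl was higher, where 20.8% of all genes tested were higher. In fl/fl, 8 of the 10 were lower, against 19.6% of all genes tested. The medians were -1.29 in tKO and -1.69 in fl/fl, against 0.03 over all genes tested in each. These comparisons use the same sham libraries as those of UUO with DMSO, so the sets of values are not independent. Mep1b was at 9.71 to 32.8 CPM in tKO UUO plus LY2109761, against 197 to 322 CPM in tKO sham. It was at 14.5 to 43.6 CPM in fl/fl UUO plus LY2109761, against 294 to 374 CPM in fl/fl sham. In tKO the Alpl call (0.97 ± 0.33, edgeR adjusted p = 0.0311) was lost without tKO sham replicate 1 (0.0891) or 3 (0.0724) and without tKO UUO plus LY2109761 replicate 1 (0.0635) or 3 (0.1291). The Anpep call (-0.74 ± 0.22, edgeR adjusted p = 0.0138) did not pass once tKO sham replicate 3 (0.0566) or tKO UUO plus LY2109761 replicate 3 (0.0669) was dropped, nor with only the groups compared (0.0618). With column totals the tKO values turned to 0.30 for Anpep and 0.08 for Naprt, Mep1a (-0.02, adjusted p = 0.9606) and Dpep1 (-0.54, 0.1835) were no longer called, and Dpp4 was called higher (1.12, 0.0032). In fl/fl, Alpl at 0.80 ± 0.33 (edgeR adjusted p = 0.0644) passed with DESeq2 (0.0477), without fl/fl sham replicate 3 (0.042) and with column totals (1.46, 0.0058), while with column totals Naprt turned to 0.23 and Anpep was no longer called (-0.42, 0.1994).

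Over the 6 group means, 7 of the 10 genes had fl/fl sham highest and tKO sham next, namely Ggt1, Anpep, Mep1a, Mep1b, Treh, Miox and Naprt. The sham groups overlapped in all of these but Mep1a and Treh. The step to the third group was free of overlap for Ggt1, Mep1b, Treh, Miox and Naprt. Dpep1 had both sham groups at the top in the other order, with overlap. In 7 genes (Ggt1, Anpep, Dpp4, Mep1a, Mep1b, Treh and Miox) tKO UUO had the lowest mean. Of these, only Mep1a and Treh had no overlap between tKO UUO and the next group. The shares of all genes with such orders of group means were not counted. Alpl had fl/fl UUO highest and tKO sham lowest, and each of its neighbours in that order overlapped.

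Other genes of the same pathways were read from 7 lists. Beside their obstruction counts with TMM stand 19.4% of all genes tested called lower in tKO and 18.7% in fl/fl. Called higher were 4168 of the 19256 genes in tKO and 4031 in fl/fl. With column totals 715 were lower and 11686 higher in tKO, and 906 lower and 8547 higher in fl/fl. Of 8 other brush border hydrolases, 3 fell with obstruction in tKO and 3 in fl/fl, with medians of -0.10 and -0.29. With column totals none of the 8 would be called lower in either, 5 would be called higher in tKO and 4 in fl/fl, and the medians would turn to 0.99 and 0.45. The direction of the list as a whole thus flips between the scalings. Ace, angiotensin-converting enzyme, fell by 1.60 ± 0.19 log2 in tKO (edgeR adjusted p = 8.8e-06) and by 1.37 ± 0.18 in fl/fl (3.2e-05). Xpnpep2, a membrane aminopeptidase P, fell by 1.31 ± 0.26 in tKO and 1.24 ± 0.24 in fl/fl. Car4, a GPI-anchored carbonic anhydrase, fell by 1.57 ± 0.20 in tKO and 1.11 ± 0.19 in fl/fl. Mme, neprilysin, differed by 0.34 in tKO and -0.84 in fl/fl and was called in neither, while with column totals it came to 1.21 in tKO (adjusted p = 0.0306). In the tKO against fl/fl comparison after UUO, 7 of the 8 were called lower, with a median of -1.13. With column totals it was 3 of the 8. In sham kidneys 5 of the 8 were also called lower in tKO, with a median of -0.92 (2 with column totals). The genotype by obstruction interaction called 0 of the 8, with a median of -0.24. In the LY2109761 interaction 5 of the 8 were called higher (0 with column totals), with a median of 1.06 under both scalings. Among them was Ace, at 1.14 ± 0.26 (edgeR adjusted p = 0.0115). This interaction and the comparison after UUO share the obstructed DMSO libraries, so their values are not independent. Of all genes tested, 9.65% were called lower in tKO after UUO and 6.57% in sham. The LY2109761 interaction called 7.05% higher, and the obstruction interaction called 0.0415% in either direction.

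The microvillus scaffold list of 13 genes had 5 lower and 1 higher with obstruction in tKO, and 3 lower and 1 higher in fl/fl. Of all genes tested, 19.4% were lower in tKO and 18.7% in fl/fl, and the fl/fl count lay near that share. With column totals 0 of the 13 were lower in either, and 6 were higher in tKO and 7 in fl/fl. Cdhr2, a protocadherin that links microvilli, fell by 1.10 ± 0.18 log2 in tKO (edgeR adjusted p = 0.00015) and by 1.12 ± 0.17 in fl/fl (0.00012). Pdzk1, a scaffold of apical transporters, fell by 1.34 ± 0.19 in tKO and by 0.88 ± 0.19 in fl/fl. Ush1c, harmonin, fell by 0.86 ± 0.18 in tKO and by 0.54 ± 0.18 in fl/fl, and turned to 0.25 and 0.21 with column totals. Ezr, the membrane-actin linker ezrin, rose by 0.47 ± 0.13 in tKO (edgeR adjusted p = 0.0078) and by 0.80 ± 0.13 in fl/fl (0.00014).

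Of 18 relatives of the members found in the table, 14 were tested. With obstruction 5 were higher and 2 lower in tKO, and 5 were higher in fl/fl. Over all 19256 genes tested, 4168 were higher and 3729 lower in tKO, and 4031 were higher in fl/fl. With column totals 12 relatives were higher in tKO and 11 in fl/fl, and 0 were lower. That scaling called 11686 of all genes higher in tKO and 8547 in fl/fl. Ggt5, a γ-glutamyl enzyme that acts on leukotriene C4, rose by 1.44 ± 0.14 log2 in tKO and by 1.80 ± 0.14 in fl/fl (edgeR adjusted p = 2e-06 and 2.7e-07), against the direction of Ggt1. Ggt7 rose by 1.67 ± 0.20 in tKO and 1.59 ± 0.20 in fl/fl. Dpep3, a relative of Dpep1, was near the limit of detection, at 0.735 CPM in tKO UUO against 0.0248 CPM in tKO sham, and at 0.362 CPM in fl/fl UUO, with 0 counts in all fl/fl sham libraries. Erap1, an aminopeptidase of the endoplasmic reticulum that trims antigenic peptides, rose by 0.89 ± 0.17 in tKO and 1.08 ± 0.17 in fl/fl.

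Around Ggt1, 6 of the 7 other glutathione genes fell in tKO, and 6 fell and 1 rose in fl/fl. The share of all genes tested that fell was 19.4% in tKO and 18.7% in fl/fl. With column totals 0 of the 7 were called lower in tKO and 3 in fl/fl. Gclc, the catalytic subunit of the first step of glutathione synthesis, fell by 1.53 ± 0.28 log2 in tKO and by 1.39 ± 0.28 in fl/fl (edgeR adjusted p = 0.00041 and 0.00085). Ggct, γ-glutamylcyclotransferase, fell by 1.68 ± 0.25 in tKO and 1.49 ± 0.24 in fl/fl. Oplah, the oxoprolinase, fell by 1.14 ± 0.17 in tKO and by 0.81 ± 0.17 in fl/fl. Chac2, a glutathione-degrading cyclotransferase, fell by 1.22 ± 0.27 in tKO and by 1.40 ± 0.27 in fl/fl.

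Around Miox, 8 of 10 genes of inositol, glucuronate and xylulose metabolism fell and 2 rose in tKO, and 8 fell in fl/fl. The share of all genes tested that fell was 19.4% in tKO and 18.7% in fl/fl. With column totals 2 of the 10 were called lower in tKO and 3 in fl/fl. Xylb, xylulokinase, fell by 2.53 ± 0.22 log2 in tKO and by 1.73 ± 0.22 in fl/fl (edgeR adjusted p = 7.4e-07 and 1.6e-05). Dcxr, which reduces xylulose, fell by 1.88 ± 0.20 in tKO and by 1.91 ± 0.20 in fl/fl. Slc5a11, a sodium-coupled inositol carrier, fell by 1.74 ± 0.19 in tKO and by 1.58 ± 0.19 in fl/fl. Cryl1, the crystallin-related gulonate dehydrogenase, fell by 1.54 ± 0.18 in tKO and by 1.22 ± 0.18 in fl/fl.

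Around Naprt, 8 of the 16 tested genes of NAD synthesis fell and 2 rose in tKO, and 8 fell and 1 rose in fl/fl. The share of all genes tested that fell was 19.4% in tKO and 18.7% in fl/fl. With column totals 3 of the 16 were called lower in each, and 6 higher in tKO and 3 in fl/fl. Kmo, kynurenine monooxygenase, fell by 1.97 ± 0.20 log2 in tKO and by 1.86 ± 0.20 in fl/fl (edgeR adjusted p = 2.9e-06 and 4.2e-06). Haao, which makes the precursor of quinolinate, fell by 2.57 ± 0.38 in tKO and by 2.55 ± 0.38 in fl/fl. Ido2 fell by 2.98 ± 0.41 in tKO and by 4.28 ± 0.42 in fl/fl. Nnmt, which methylates nicotinamide and so takes it out of the salvage route, rose by 3.35 ± 0.42 in tKO and by 2.27 ± 0.37 in fl/fl.

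Of 8 transcription factors of the proximal tubule, 5 fell with obstruction in tKO and 2 in fl/fl. Of all genes tested, 19.4% fell in tKO and 18.7% in fl/fl, and the fl/fl count lay near that share. With column totals 2 of the 8 were called lower in tKO and 0 in fl/fl. Hnf4a fell by 1.01 ± 0.22 log2 in tKO (edgeR adjusted p = 0.0018) and by 0.70 ± 0.22 in fl/fl (0.0178), but with column totals it turned to 0.15 and 0.04. The tKO minus fl/fl difference of Hnf4a after UUO was -0.91 ± 0.22 (0.0121). Ppara fell by 1.73 ± 0.32 in tKO (0.00049) and differed by -0.36 ± 0.30 in fl/fl (0.3636). Esrra fell by 2.36 ± 0.42 in tKO (0.00035) and differed by -0.59 ± 0.40 in fl/fl (0.2661). With column totals the fl/fl values of both turned positive, at 0.38 for Ppara and 0.13 for Esrra. The interactions of obstruction with genotype missed the threshold, at -1.37 ± 0.43 for Ppara (edgeR adjusted p = 0.1916) and -1.78 ± 0.57 for Esrra (0.1954).

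The likeness of profiles was described by the root mean square distance between centred log2 levels over the 18 libraries, among 12848 genes with a mean of at least 5 CPM. The genes nearest to the mean profile of the 10 enzymes were 2610528J11Rik at 0.137 log2, Selenbp1 at 0.138 and Pxmp4 at 0.166. Far more genes outside the group than members were candidates for the nearest gene of each enzyme, so a nearest gene outside the group carries no weight. Ggt1 lay 0.139 from Slc22a18 and 0.391 from Miox, its nearest member. Mep1a lay 0.212 from Dgat2 and 0.369 from Treh, and Naprt lay 0.074 from Clpp and 0.345 from Anpep. The nearest member of Mep1b was Miox, at 0.872, and that of Alpl was Dpp4, at 0.650, the largest such distances among the 10. Distances shrink for genes that vary little, and the libraries share the same obstruction contrast.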

How the data were processed

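The files hold gene-level read counts and FPKM for mRNA libraries of mouse kidney. Per the submitters' processing notes, fastp, HISAT2 and StringTie were used, with GRCm38/mm10 named for mouse; no version, strand setting or annotation is stated there. The deposited counts are whole numbers per gene without normalization, and the deposited FPKM values were scaled per library by the authors. HK-2 cell and unobstructed knockout tables were not used here. The members and lists were chosen with earlier results of these data known.

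The counts of 18 libraries (6 groups of 3, grouped by genotype and treatment labels) were filtered with filterByExpr, scaled by TMM and fitted in 1 model with 12 residual degrees of freedom, using edgeR 4.0.16 (limma 3.58.1, R 4.3.3). Contrasts were tested with the quasi-likelihood test and Benjamini-Hochberg adjustment over 19256 genes at 0.05. SE is the absolute log2 fold change divided by the square root of F. CPM values are counts scaled to 1000000 of the TMM-scaled library size. Distances used log2 CPM with a prior count of 2, and ratios to the tubule markers used log2 CPM without a prior count. Totals of 13015669 to 19565376 counts set the counting precision: the counting error of a member was 0.678% to 6.84% of its level, below the spread between libraries in 57 of 60 gene and group pairs. On simulated counts for UUO against sham in fl/fl, 18929 genes were tested. Of 100 genes changed by 1 log2 unit 44 were recovered, and of 100 changed by 2 it was 93. There were 4 false calls among 141. No other genes were changed, whereas 7625 genes were called in the real comparison. The adjusted threshold and the scaling thus met a different setting, and these rates do not give the power of the real comparison.

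Named were all 10 members, Pcmt1, the genes nearest in profile and, of each list, the 4 genes with the lowest p in UUO against sham in fl/fl; other list genes and markers named were chosen after their values were seen. Alternatives were DESeq2's size factors or column totals in place of TMM, no filter, no mitochondrial genes, only the groups compared, a replicate block, DESeq2 1.42.0, and each library left out. The positions in the deposited table did not match GRCm38 (2.79% of 51884 genes had the same start), so positions were taken from GENCODE M21 (GRCm38) by Ensembl identifier. Results for 1 list gene and for promoter sequences are not reported here. Without a stated strand setting, reads of overlapping antisense genes cannot be told apart, and Ggt1 and Dpep1 have related copies.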

Additional observations from a re-analysis of the deposited data

Results flagged for a closer look

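Of the member genes, 3 had a LY2109761 effect that differed between genotypes by the interaction test (edgeR). In the same test 7.05% of all genes tested were called higher and 6.80% lower. With column totals none of the 3 was called. The Naprt call was also lost without the filter on low counts (edgeR adjusted p = 0.0656) and without tKO UUO plus LY2109761 replicate 3 (0.055). The tKO change minus the fl/fl change was 1.41 log2 for Mep1a (change of 0.75 in tKO and -0.66 in fl/fl), 1.13 for Treh (0.45 in tKO and -0.69 in fl/fl) and -0.70 for Naprt (-0.26 in tKO and 0.44 in fl/fl). In each of these, all 3 treated libraries of a genotype lay on the side of their DMSO libraries given by the sign of the change. Such separation, in either direction, was found for 25.6% of all genes tested in tKO and for 31.8% in fl/fl. Groups of 3 libraries were not tested for outlying libraries.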

How the results depend on the processing

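Counts of called members stayed within 1.5 times of the reported one in 138 of 155 recalculations. This compares numbers of calls only, and a comparison with no calls in either fit counts as unchanged. It does not register changes of direction or of the genes called. Column totals for UUO against sham thus count as unchanged in both genotypes, although Anpep, Dpep1 and Naprt lost their calls and Dpp4 was called higher. With column totals in place of TMM, the median of all genes moved to 1.06 (tKO UUO against sham), 0.76 (fl/fl), 1.02 and 0.70 (UUO plus LY2109761 against sham, tKO and fl/fl), -0.25 (tKO against fl/fl in sham) and 0.30 (genotype by obstruction). Directions then reversed for tKO UUO against sham (Anpep 0.29, Dpp4 0.97, Naprt 0.41), tKO UUO plus LY2109761 against sham (Anpep 0.30, Naprt 0.08) and fl/fl UUO plus LY2109761 against sham (Dpp4 0.58, Naprt 0.23). They also reversed for LY2109761 in tKO (Ggt1 -0.03), tKO against fl/fl in sham (Dpep1 -0.34) and with LY2109761 (Dpep1 0.01), and genotype by obstruction (Dpp4 0.21, Mep1a 0.25, Mep1b 0.36). Column totals called 0 members for tKO against fl/fl with LY2109761 and 0 for the LY2109761 interaction.

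Other reversals were of uncalled values near 0: without the filter Dpp4 in tKO UUO against sham (0.01), Dpep1 in tKO against fl/fl in sham (-0.01) and with LY2109761 (0.00), and Mep1b by obstruction (0.00). Dpep1 in tKO against fl/fl with LY2109761 gave 0.00 with DESeq2's size factors, 0.01 without mitochondrial genes and 0.00 with DESeq2. Anpep by obstruction gave -0.01, -0.03 and -0.01 under those 3 settings. Counts of called members changed to 1 with DESeq2's size factors, 1 without mitochondrial genes and 3 with DESeq2 for LY2109761 in fl/fl. DESeq2 called 1 for LY2109761 in tKO, 1 for genotype by obstruction and 2 for tKO against fl/fl with LY2109761, where no filter and only the groups compared gave 0 each. With only the groups compared, tKO against fl/fl in sham gave 0.

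Replicate numbers were shared between groups, but correlations of same-numbered deviations ran from -0.134 to 0.154, and at most 2 of 6 libraries in a comparison correlated best with their own number. With a replicate block, 1 member was called for LY2109761 in fl/fl (Treh, adjusted p = 0.0283), and Miox there (0.04), Dpep1 in tKO against fl/fl with LY2109761 (0.12) and Anpep by obstruction (-0.02) reversed. The block also ended the calls of Dpep1 in fl/fl UUO against sham (0.0622) and of Alpl in tKO UUO plus LY2109761 against sham (0.051).

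Leaving out 1 library at a time, called members ranged from 0 to 1 for LY2109761 in fl/fl and for tKO against fl/fl with LY2109761. Signs changed for UUO against sham (Dpp4 -0.17 to 0.05 and Alpl -0.16 to 0.32 in tKO, Dpp4 -0.05 to 0.09 in fl/fl) and for UUO plus LY2109761 against sham (Dpp4 -0.07 to 0.26 in tKO, -0.16 to 0.01 in fl/fl). They changed for LY2109761 in tKO (Ggt1 -0.13 to 0.22, Anpep -0.13 to 0.31, Dpp4 0.00 to 0.33, Dpep1 -0.35 to 0.02) and in fl/fl (Mep1b -0.06 to 0.90, Miox -0.22 to 0.06). They changed for tKO against fl/fl in sham (Ggt1 -0.15 to 0.01, Dpep1 -0.16 to 0.33) and with LY2109761 (Anpep -0.35 to 0.08, Dpp4 -0.09 to 0.25, Mep1b -0.81 to 0.41, Dpep1 -0.22 to 0.20). They changed for genotype by obstruction (Anpep -0.11 to 0.14, Dpp4 -0.20 to 0.02, Mep1a -0.27 to 0.13, Mep1b -0.65 to 0.28) and the LY2109761 interaction (Mep1b -0.33 to 0.87). None of these values was called in the reported fit.

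Over all genes, LY2109761 in fl/fl gave 991 calls, against 25 with column totals, 54 with only the groups compared, 360 without the filter and 2072 with DESeq2. In tKO it gave 33, against 3, 13, 13 and 898, and 6 with the replicate block. For tKO against fl/fl in sham, 2375 calls became 292 with column totals, 6 with only the groups compared and 1529 without the filter. After UUO 3451 became 682 with column totals. With LY2109761, 573 became 23 with column totals, 237 with only the groups compared, 222 without the filter, 221 with the block and 1471 with DESeq2. Genotype by obstruction gave 8, against 0 with column totals and 412 with DESeq2, and the LY2109761 interaction 2666, against 289 and, without the filter, 1624. For UUO against sham in tKO 7897 became 12401, and for UUO plus LY2109761 in tKO 7662 became 11563, both with column totals. Leaving out 1 library, the counts were 2 (fl/fl UUO plus LY2109761 replicate 3) to 1269 for LY2109761 in fl/fl, and 2 to 282 (tKO UUO plus LY2109761 replicates 3 and 1) in tKO. For tKO against fl/fl they were 485 to 4235 in sham (tKO sham replicates 2 and 1), 1360 (fl/fl UUO replicate 1) to 2802 after UUO, and 14 (tKO UUO plus LY2109761 replicate 3) to 700 with LY2109761. Genotype by obstruction gave 4 to 293 (tKO sham replicate 1), and the LY2109761 interaction 1340 (fl/fl UUO plus LY2109761 replicate 3) to 2829. The causes of these changes were not tested, apart from fewer libraries or genes where a setting removes them. With 3 libraries a group, changes of 1 log2 unit can be missed.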
